A study of Mus musculus with 8 samples.

Results

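The 7 genes described here, Notch1, Notch2, Dll1, Jag1, Hes1, Hes5 and Mfng, belong to the Notch signalling pathway. They were found by their symbols in the deposited gene table, which lists 14166 genes, and all 7 were present. Their levels were followed through the 7 deposited clusters of nuclei, along the cell cycle of the apical progenitors, and between wildtype and Pantr2 knockout embryos. The nuclei came from flash-frozen dorsal telencephalon, from which the cerebral cortex develops, of C57BL/6J mouse embryos at E15.5, and were read with the 10x 3′ assay. The 4 wildtype and 4 Pantr2 knockout samples differ by genotype alone in their labels. Pantr2 encodes a noncoding transcript, and the design of the knockout allele is not given in the sources used here. The labels do not say whether replicates are separate embryos, so p-values measure only the spread between these samples.

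Notch signalling passes information between touching cells. A ligand such as Dll1 or Jag1 on a cell binds a Notch receptor on its neighbour, the receptor is cut, and its freed inner part enters the nucleus and joins the DNA-binding protein RBPJ to switch on targets such as Hes1 and Hes5. In the cortex these HES repressors hold apical progenitors in a dividing state, while cells that start to differentiate make proneural factors and Delta ligands. Fringe glycosyltransferases such as Mfng add sugars to the receptors and change how they respond to each ligand.

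The samples held 67319 nuclei, 33781 of them wildtype and 33538 knockout, with 20446698 to 34083796 unique molecular identifiers (UMIs, each standing for 1 captured transcript molecule) per sample and median depths of 2570 to 2905 UMIs per nucleus. Any 2 libraries shared between 8 and 30 nucleus barcodes, over 28 pairs. Counts of Pantr2 itself were not analysed here, so the genotype rests on the labels. By Xist and Y-linked transcripts, wildtype replicate 4 and knockout replicates 1 and 4 were male and the other samples female. Cluster 4 (10948 nuclei) held the highest level of 9 of 9 apical progenitor markers found, among them Pax6 at 62.3, Slc1a3 at 851 and Mki67 at 131 UMIs per 1000000 UMIs of the summed nuclei (CPM). Cluster 5 (7826 nuclei) held the highest level of 4 of 5 intermediate progenitor markers, with Eomes at 88.2 CPM against 27.1 CPM in cluster 4, while the fifth marker, Insm1, was highest in cluster 1. Clusters 4 and 5 are therefore called apical progenitor-like and intermediate progenitor-like here. Upper-layer neuron markers were highest in cluster 1 (5951 to 7046 CPM summed in wildtype samples) and deep-layer neuron markers in clusters 2 and 3, which are called neuron-like. The sums per sample rest on 787 to 2145 nuclei in cluster 4 and 613 to 1584 in cluster 5.

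All 7 genes had their highest wildtype level in 1 of the 2 progenitor clusters. Both receptors, Jag1, Hes1 and Hes5 were highest in the apical progenitor-like cluster 4, and Dll1 and Mfng in the intermediate progenitor-like cluster 5. The clusters were made from the expression of these same nuclei, so levels by cluster are a description with no test. Levels are plain CPM with the mean and SD over 4 samples. They count nuclear transcripts caught at their 3′ ends, and they compare 1 gene between states, not 1 gene with another.

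Notch1 (ENSMUSG00000026923; chromosome 2, 26347915 to 26406675), a receptor, reached 64.4, 71.2, 57.8 and 67.4 CPM in cluster 4 of wildtype replicates 1 to 4. Its mean there was 65.2 ± 5.64 CPM (SD, n = 4), 4.68 times that of cluster 5 at 13.9 ± 1.93 CPM. Cluster 5 in turn stood 6.58 times above cluster 1, and the 5 other clusters, between 1.59 and 2.12 CPM, overlapped in their samples. Of all wildtype Notch1 UMIs, 77.7% came from cluster 4 and 11.03% from cluster 5. Genes on the opposite strand overlap Notch1 in the GENCODE M21 annotation and 1 of them is in the counts, so some UMIs could be shared. Notch2 (ENSMUSG00000027878; chromosome 3, 97920843 to 98057677), the other receptor, was steeper across clusters. It gave 413, 448, 463 and 469.5 CPM in cluster 4 of wildtype replicates 1 to 4 and a mean of 448 ± 25.5 CPM (SD, n = 4). That was 14.6 times the 30.7 ± 1.72 CPM of cluster 5, and cluster 4 supplied 81.3% of the wildtype UMIs. The samples of clusters 4 and 5 did not overlap, nor did those of cluster 5 and the next cluster, while the remaining 5 clusters overlapped with their neighbours in the order.

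The ligands took different places. Jag1 (ENSMUSG00000027276; chromosome 2, 136923376 to 136958564), a membrane ligand of the Serrate family, followed the receptors. It stood at 40.9, 46.7, 51.4 and 57.7 CPM in cluster 4 of wildtype replicates 1 to 4, with a mean of 49.2 ± 7.11 CPM (SD, n = 4), 3.45 times the next cluster, the unnamed cluster 6 at 14.3 ± 4.19 CPM. Every other neighbouring pair of clusters in the order of Jag1 overlapped. Dll1 (ENSMUSG00000014773; chromosome 17, 15587616 to 15597134), a ligand of the Delta family made by cells that leave the progenitor state, was spread more evenly. Its mean was 13.8 ± 2.92 CPM in cluster 5 and 9.44 ± 3.62 CPM in cluster 4 (SD, n = 4 each), and the samples of these 2 clusters overlapped. Cluster 5 gave 13.9, 17.8, 11.1 and 12.3 CPM in wildtype replicates 1 to 4, and cluster 4 gave 13.9, 9.51, 9.39 and 4.99 CPM in the same order. Within samples Dll1 was higher in cluster 5 in 8 of 8, by a median of 1.47 times, but in wildtype replicate 1 the ratio was 1.00. Only 18 to 66 Dll1 UMIs per wildtype sample lay behind the cluster 4 values. Neuron-like clusters 1, 2 and 3 held 4.22 to 7.13 CPM, where low expression cannot be told apart from free RNA. Dll1 UMIs were found in every cluster, and no 2 neighbours in its order were free of overlap.

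Hes1 (ENSMUSG00000022528; chromosome 16, 29883202 to 29886614), a repressor and a target of Notch, gave 21.2, 19.3, 15.0 and 21.1 CPM in cluster 4 of the wildtype replicates. The mean of 19.2 ± 2.89 CPM (SD, n = 4) was 3.45 times the 5.56 ± 3.28 CPM of cluster 5, and clusters 5, 1, 2, 6, 3 and 7, in that order, overlapped from each to the next. Hes5 (ENSMUSG00000048001; chromosome 4, 155045380 to 155046828), the HES gene most tied to Notch input in neural progenitors, gave 69.3, 60.8, 42.1 and 62.4 CPM in cluster 4. Its mean there was 58.6 ± 11.6 CPM against 20.3 ± 6.03 CPM in cluster 5 (SD, n = 4 each), 2.88 times higher, and the other clusters overlapped between 14.5 and 18.1 CPM. Hes1 and Hes5 thus kept more signal outside cluster 4 than the receptors did: cluster 4 supplied 42.6% and 39.4% of their wildtype UMIs.

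Since Hes5 is the classical readout of the pathway, the DNA just before its start is shown. It is the RefSeq promoter window of 250 bases on GRCm38.p6, chr4:154960673-154960922, plus strand, printed 5′ to 3′ with matches to the core of the RBPJ site (TGGGAA, on either strand) in capitals.
Hes5 promoter: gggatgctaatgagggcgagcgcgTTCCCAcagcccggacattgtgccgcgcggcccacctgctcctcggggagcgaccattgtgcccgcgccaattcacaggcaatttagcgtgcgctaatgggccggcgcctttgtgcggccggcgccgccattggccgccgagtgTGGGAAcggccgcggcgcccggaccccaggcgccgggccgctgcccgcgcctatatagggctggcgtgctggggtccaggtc
The matches begin 226 and 82 bases before the start, the first on the opposite strand and the second on the strand of the gene, and both lie within the longer form GTGGGAA. RefSeq windows were at hand for Notch1, Notch2, Jag1, Dll1 and Hes5, and the core was found in that of Hes5 alone. For comparison, 21.6% of 32851 promoter windows of the same length hold TGGGAA and 5.42% hold GTGGGAA, so a match describes the letters and no more. These positions belong to GRCm38.p6, while those of the genes are from the deposited table, whose build is not named and whose starts differ from GENCODE M21 on GRCm38 for all 7 genes.

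Mfng (ENSMUSG00000018169; chromosome 15, 78640082 to 78657675), the Fringe enzyme, was the gene most tied to cluster 5. It gave 127, 115, 114 and 131 CPM there in wildtype replicates 1 to 4, and 47.9, 32.3, 28.9 and 31.6 CPM in cluster 4. The mean of 122 ± 8.27 CPM in cluster 5 was 3.46 times that of cluster 4 at 35.2 ± 8.58 CPM, which was itself 1.76 times that of cluster 1 at 19.98 ± 0.519 CPM (SD, n = 4 each). Neither step showed an overlap of samples. In knockout and wildtype samples alike Mfng was higher in cluster 5 than in cluster 4, in 8 of 8 samples and by 2.24 to 4.14 times, while Notch1, Notch2, Jag1, Hes1 and Hes5 were lower there in 8 of 8 samples.

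**Figure D1:**
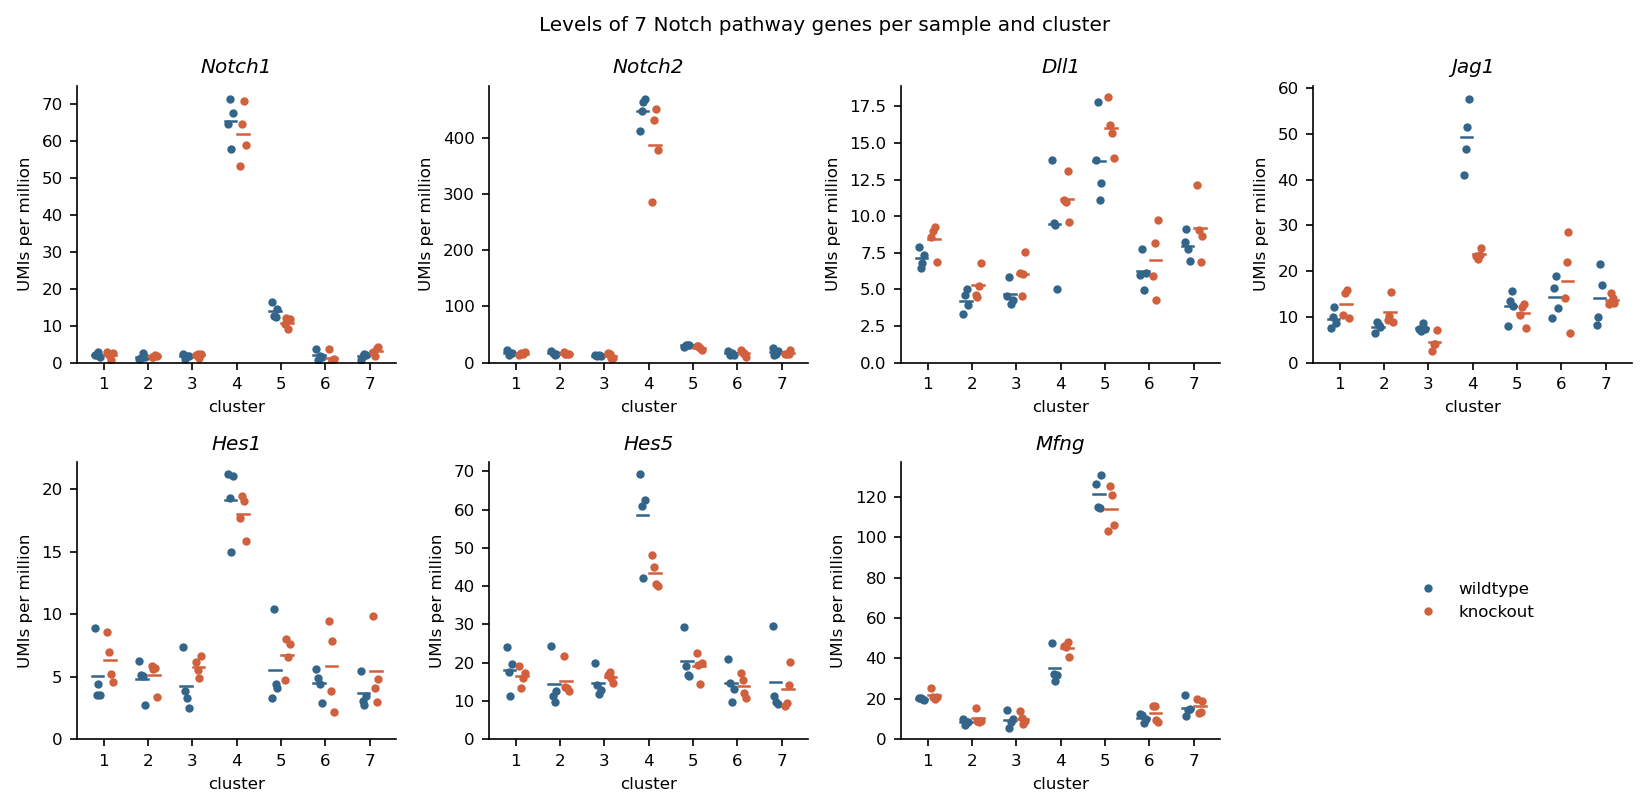
Levels of the 7 genes (vertical axis, CPM, from 0) in each of the 7 clusters (horizontal axis); each point is a sample, wildtype in blue and knockout in orange, and each bar is the mean of 4 samples. Notch1, Notch2, Jag1, Hes1 and Hes5 peak in cluster 4, Dll1 and Mfng in cluster 5, and the knockout points of Jag1 in cluster 4 (22.7 to 25.1) all lie under the wildtype points (40.9 to 57.7).

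Some paralogues of these genes, picked after their values were seen, also differed between clusters 4 and 5. Levels of the other paralogues by cluster are not reported here. Notch3, a further receptor, was at 87.6 ± 11.1 CPM in cluster 4 and 4.03 ± 1.35 CPM in cluster 5 of the wildtype samples (SD, n = 4 each). Lfng, a second Fringe enzyme, was at 37.7 ± 1.81 CPM in cluster 4 and 2.35 ± 0.935 CPM in cluster 5, the reverse order of Mfng. Dll3, a Delta family member that acts inside the cell, was at 6.01 ± 1.08 CPM in cluster 4 and 15.1 ± 3.89 CPM in cluster 5.

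Genes with the most similar wildtype pattern were sought over 10 states, which were clusters 1, 2, 3, 5, 6 and 7 and 4 cell cycle windows of cluster 4, among 9168 genes with a mean of at least 10 CPM. The measure was Pearson's r of log2(CPM + 1). All states share the same libraries, so r is a description. Near to Notch1 were Col22a1 and Adgrv1 (both r = 0.997), and nearest to Notch2 were Plce1 (0.998), 9430041J12Rik and Ccdc80. Nearest to Jag1 were Ston2 (0.994), Pea15a and Dars, to Hes1 Zfp335os (0.986), Gnai2 and Psat1, and to Hes5 Rreb1 (0.993), Afap1l2 and Slc27a1. Mfng was nearest to Eomes (0.982), the T-box factor that marks intermediate progenitors, then to Anapc4 and Thrb. Dll1 had the weakest neighbours, Mcee (0.967), Ubxn4 and Secisbp2l. Among the 7 genes themselves, Notch2 followed Hes5 (0.976), Notch1 (0.973) and Jag1 (0.972), and Dll1 and Mfng followed each other (0.862) more than either followed Jag1 or Hes1 (0.469 to 0.677).

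The share of nuclei with a UMI was compared after every nucleus was thinned to 1400 UMIs, with the neuron-like clusters 1 to 3 as the level that free RNA or low expression gives. In wildtype cluster 4, 45.2 ± 2.27% of nuclei held a Notch2 UMI, 9.11 ± 1.18% a Notch1 UMI, 7.72 ± 1.43% a Hes5 UMI, 5.87 ± 1.03% a Jag1 UMI and 2.82 ± 0.187% a Hes1 UMI (SD over 4 samples). The shares in clusters 1 to 3 were 2.16%, 0.278%, 2.41%, 1.10% and 0.629% in the same order. Mfng was seen in 16.2 ± 1.63% of wildtype nuclei of cluster 5, 4.34 ± 1.54% of cluster 4 and 1.84% of clusters 1 to 3. Dll1 lay closest to the neuron level, at 1.71 ± 0.433% in cluster 5, 1.09 ± 0.473% in cluster 4 and 0.793% in clusters 1 to 3, and its lowest cluster 4 sample (0.515%) was under that level. Median depths before thinning were 2652 to 3113 UMIs in wildtype cluster 4, 2106 to 2464 in cluster 5 and 2689 to 2812 in clusters 1 to 3. Without thinning the wildtype shares in cluster 4 were 67.5% for Notch2, 17.8% for Notch1, 15.2% for Hes5, 11.9% for Jag1, 5.53% for Hes1, 9.36% for Mfng and 2.69% for Dll1.

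**Figure D2:**
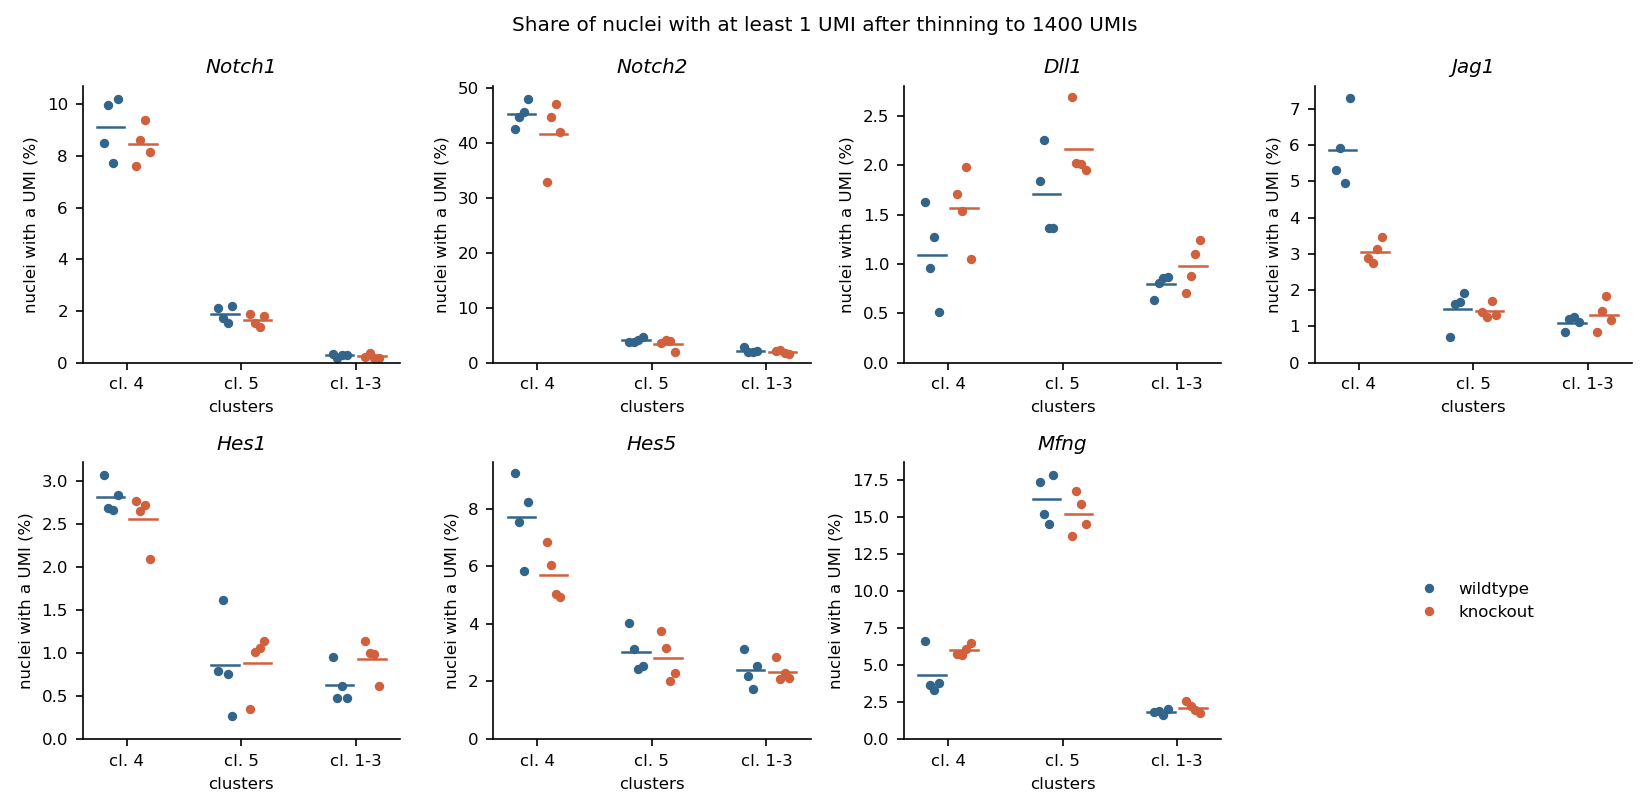
Share of nuclei with at least 1 UMI of each gene (vertical axis, percent, from 0) after thinning every nucleus to 1400 UMIs, in cluster 4, cluster 5 and the neuron-like clusters 1 to 3 (horizontal axis); points are samples, wildtype in blue and knockout in orange, and bars are means of 4. Notch2 has the highest shares in cluster 4 and Mfng those in cluster 5, and the Jag1 shares of cluster 4 do not overlap between genotypes.

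The cell cycle was followed in cluster 4 with the deposited tricycle angle, a position on a circle given to each nucleus. Nuclei within 0.25π of 0 were taken as G1/G0 (1036), those from 0.25π to 0.5π as G1/S (544), those from 0.5π to 1π as S (5734), and those from there to 0.25π short of the full turn as G2/M (3634). The angle was computed by the authors from the same nuclei, and whether any of the 7 genes entered it is not given in the sources used here. Each sample supplied every window, so windows were compared within samples with edgeR's quasi-likelihood test, in which a gene is called when its p adjusted over all genes tested by the Benjamini-Hochberg method is under 0.05.

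Along this circle Notch2 rose towards division, and Mfng and Dll1 were highest around G1. In S against G1/G0, 2 of 7 genes were called, both lower, beside 19.1% of all 9262 genes tested (10.6% higher and 8.52% lower). In G2/M against G1/G0, 3 of the 6 genes tested were called, 1 higher and 2 lower, beside 27.5% of 8403 genes (14.5% higher and 13.1% lower). Dll1 had too few UMIs for the second comparison.

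Notch2 went from 179 to 497 CPM in G1/G0, with a median of 312 CPM over 8 samples, to 326 to 558 CPM in G2/M, with a median of 519.8 CPM. It was higher in G2/M in 8 of 8 samples, by 0.60 ± 0.09 on the log2 scale (SE, adjusted p = 1.75e-06, edgeR). In S its median was 405 CPM, higher in 6 of 8 samples, and the log2 difference of 0.24 ± 0.09 was not called (adjusted p = 0.0535, edgeR). Other settings moved that S value over the threshold, to 0.32 ± 0.08 (edgeR adjusted p = 0.00114) with no filter on low counts, and the range over all settings was 0.00114 to 0.696.

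Mfng ran the other way. It lay between 32.9 and 121 CPM in G1/G0 (median 57.1 CPM over 8 samples), between 31.4 and 53.8 CPM in S (median 43.7 CPM) and between 17.8 and 38.4 CPM in G2/M (median 31.5 CPM). It was lower in G2/M in 8 of 8 samples, by −1.0 ± 0.17 on the log2 scale (adjusted p = 2.01e-05, edgeR). The S difference of −0.52 ± 0.16 was lower in 7 of 8 samples and called (adjusted p = 0.0160, edgeR), but not without knockout replicate 3 (0.0826) or knockout replicate 4 (0.0764), nor with nuclei of at least 2000 UMIs (0.117). Dll1 gave 9.39 to 38.5 CPM in G1/G0 (median 25.8 CPM), 3.71 to 12.54 CPM in S (median 10.7 CPM) and 4.67 to 12.2 CPM in G2/M (median 6.97 CPM). Its S difference was −1.24 ± 0.27 on the log2 scale (adjusted p = 0.00107, edgeR), lower in 6 of 8 samples. The G1/G0 values rest on 2 to 13 Dll1 UMIs per sample, so they are coarse. In the 2 alternative settings that tested Dll1 in G2/M it was called, at −1.46 to −1.38, and the level was lower than in G1/G0 in 8 of 8 samples.

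Of the HES targets, Hes5 was called along the angle. Its G1/G0 level was 37.8 to 100.2 CPM (median 56.1 CPM over 8 samples) against 30.2 to 62.9 CPM in G2/M (median 46.9 CPM), a log2 difference of −0.40 ± 0.14 (adjusted p = 0.0348, edgeR). It was lower in 6 of 8 samples, and the call held in 4 of 12 alternative settings, with adjusted p from 0.0166 to 0.143. It was not called without wildtype replicate 1 (0.05999), wildtype replicate 2 (0.107), wildtype replicate 4 (0.121), knockout replicate 1 (0.0557) or knockout replicate 3 (0.0644). Hes1 (0.19 ± 0.22, adjusted p = 0.576) and Notch1 (−0.06 ± 0.13, adjusted p = 0.8) were not called in G2/M, and Jag1 (0.46 ± 0.20, adjusted p = 0.0905, edgeR) was called in 3 of 12 alternatives.

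Nuclei of the G1/G0 window differed in other ways. The 5 intermediate progenitor markers summed to 385 to 590.4 CPM in G1/G0, 273 to 414 CPM in S and 217 to 358 CPM in G2/M, lower than in G1/G0 in 8 of 8 samples in both later windows. The summed apical progenitor markers, which include the dividing-cell gene Mki67, ran from 1668 to 3110 CPM, 1821 to 2572 CPM and 2152 to 3101 CPM. Median depth per nucleus was 2027 to 2625 UMIs in G1/G0, 2866 to 3366 in S and 2734 to 3021 in G2/M. The part of these in the Mfng, Dll1, Hes5 and Notch2 differences was not tested. With windows of the same centre and 0.5 times the width, Dll1 and Hes1 were not tested in S, and of the 5 genes tested there none was called, Mfng being at −0.36 ± 0.18 (adjusted p = 0.211, edgeR). The narrow G2/M window kept 123 nuclei, 6 to 32 per sample, and only Notch2 could be tested in it, at 0.40 ± 0.18 (adjusted p = 0.497, edgeR), not called. The G2/M values of Mfng and Hes5 were therefore not tested in narrow windows.

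A smooth wave fitted per sample placed the mean peak of Notch2 at 1.27π, of Hes1 at 1.44π and of Jag1 and Notch1 at 1.45π, all in the G2/M window, and of Hes5 at 0.05π, Dll1 at 0.07π and Mfng at 0.24π, all in G1/G0. The place of 2 of them depended on the setting: with 2 harmonics the Hes5 peak was at 1.74π, at the end of the G2/M window, and with nuclei of at least 2000 UMIs the Mfng peak was at 0.29π, in G1/S. The peaks of Notch2, Hes1, Jag1 and Notch1 all fell within the narrow G2/M window. It held 123 of the 3634 G2/M nuclei, so few nuclei lay where these peaks were placed. Samples lay within 0.5π of the mean peak in 8 of 8 for Notch2, Dll1, Hes1 and Mfng, in 7 of 8 for Notch1 and Hes5 and in 6 of 8 for Jag1. The median log2 ratio of peak to trough was 1.93 for Dll1, 1.25 for Mfng, 0.96 for Jag1, 0.89 for Notch2, 0.77 for Hes1, 0.55 for Hes5 and 0.35 for Notch1, with depth setting a floor for the sparse genes. The difference between genotypes in this ratio had an exact two-sided permutation p of 0.429 to 0.8 for the 7 genes and an adjusted p of 0.8 for each.

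**Figure D3:**
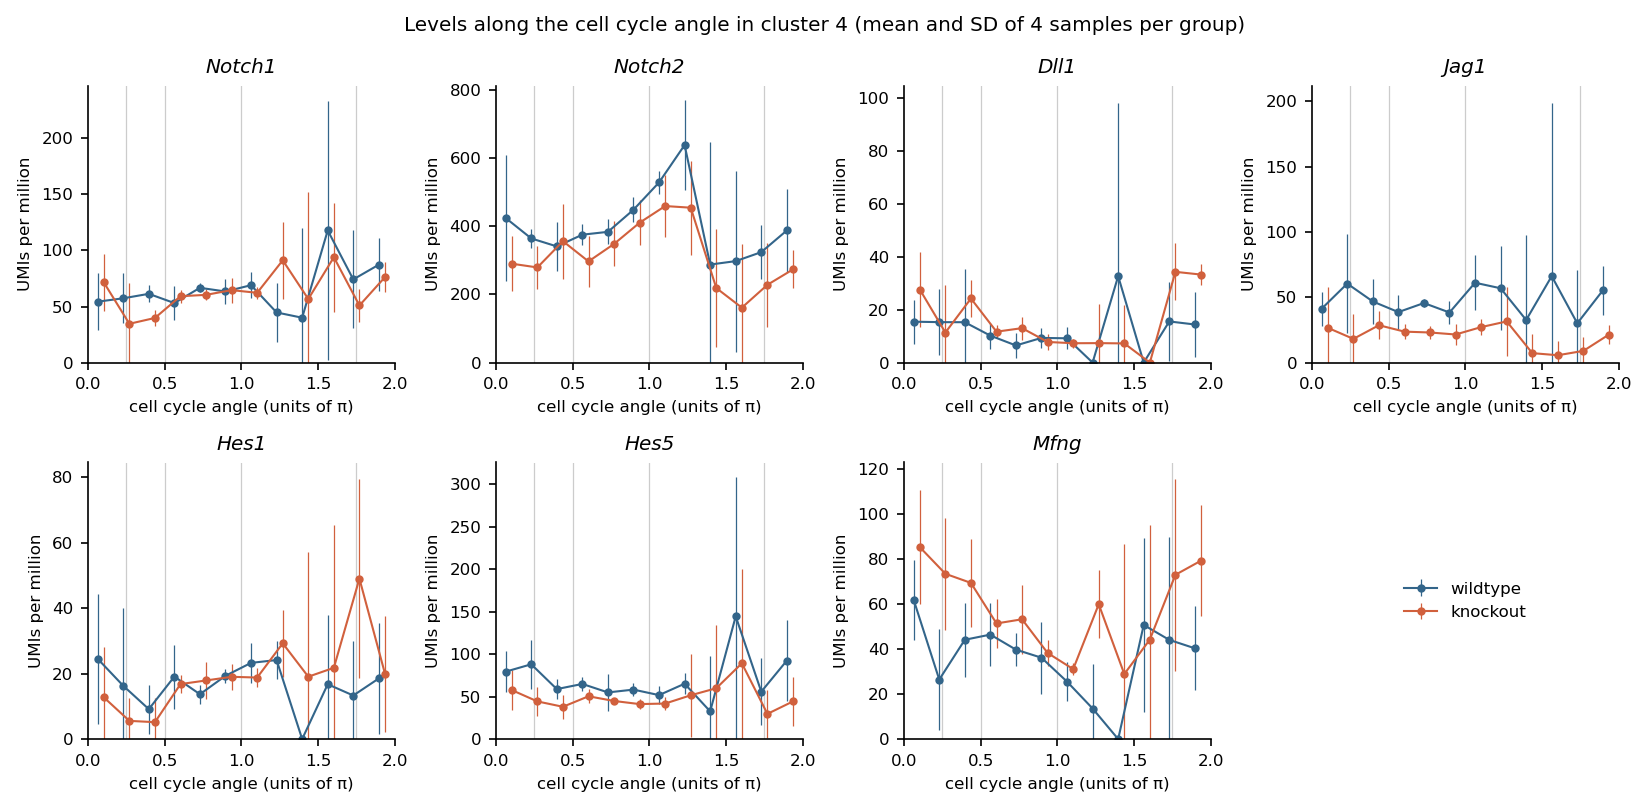
Levels of the 7 genes in cluster 4 (vertical axis, CPM, from 0) in 12 equal bins of the cell cycle angle (horizontal axis, units of π), wildtype in blue and knockout in orange, points and bars being the mean and SD of 4 samples (bars running under 0 are cut at the axis), with grey lines at the window borders. Notch2 climbs to a crest just past 1π, Mfng and Dll1 are lowest after it, the wide bars between 1.25π and the last border sit where nuclei are few, and the knockout line of Jag1 stays under the wildtype line.

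Knockout was then compared with wildtype, in which the question was whether loss of Pantr2 goes with a change of any of these genes in the progenitors. Jag1 in cluster 4 was the single call among 51 tests of the 7 genes over all nuclei and 7 clusters. It gave 40.9, 46.7, 51.4 and 57.7 CPM in wildtype replicates 1 to 4 and 23.2, 22.7, 23.5 and 25.1 CPM in knockout replicates 1 to 4, from 137 to 208 and 76 to 157 UMIs per sample. Every knockout sample was lower than every wildtype sample, and the knockout samples lay close together, at 23.6 ± 1.06 CPM (SD, n = 4). Here and below, the share of all genes whose samples do not overlap between genotypes was not computed. Jag1 fell by 1.03 ± 0.12 on the log2 scale (SE, adjusted p = 3.89e-04, edgeR). The call, 1 of 7 genes in this cluster, stands beside 4.29% of all 11935 genes tested there. It was made in 14 of 14 alternative settings, at −0.94 to −1.12, including sex as a covariate (−1.07) and the replicate number as a block (−1.01).

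Jag1 differed most between genotypes in cluster 4, but the difference from cluster 5 was not established. Cluster 5 gave a log2 change of −0.10 ± 0.23 (95% interval −0.55 to 0.36, adjusted p = 0.947, edgeR). The test of cluster 5 against cluster 4 gave 0.97 ± 0.22 with an adjusted p of 0.0552 (edgeR), and 0.655% of 11908 genes were called in it. It was 0.0470 with no filter on low counts and 0.0280 without knockout replicate 4, and ran up to 0.318 over the settings. In clusters 1 and 2 the Jag1 value was on the other side, at 0.50 ± 0.20 (adjusted p = 0.203) and 0.51 ± 0.20 (adjusted p = 0.163, both edgeR). In cluster 3 it was −0.69 ± 0.24 (adjusted p = 0.169, edgeR) and was called without knockout replicate 4, at −1.001 (adjusted p = 0.0271). Over all nuclei it was −0.20 ± 0.11 (adjusted p = 0.336, edgeR).

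The share of cluster 4 nuclei with a Jag1 UMI after thinning was 5.87 ± 1.03% in wildtype and 3.06 ± 0.313% in knockout samples (SD, n = 4 each), without overlap. The exact two-sided permutation p was 0.0286, the smallest that 70 arrangements allow, and 0.200 after adjustment over the 7 genes. The share in clusters 1 to 3 was 1.10% and 1.32%. In nuclei, fewer positive cells and less RNA per cell cannot be told apart from a share alone. No gene near Jag1 was called in cluster 4: 0 of 3 tested genes within 1 Mb, 0 of 23 within 5 Mb and 0 of 105 within 10 Mb.

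Other features of cluster 4 moved with genotype beside Jag1. The summed 9 apical progenitor markers ran from 2301 to 2836 CPM in wildtype and 1928 to 2015 CPM in knockout samples. Most lists of other cell types were also lower in the knockout samples, some without overlap. Without overlap were 4 pericyte markers at 27.9 to 30.2 against 9.25 to 14.4 CPM and 6 endothelial markers at 13.0 to 15.9 against 7.33 to 11.6 CPM. The same held for 4 oligodendrocyte lineage markers at 9.80 to 11.8 against 1.65 to 3.07 CPM, and 3 microglia markers at 4.72 to 6.01 against 2.09 to 2.97 CPM. Overlapping but lower were 5 interneuron markers (46.2 to 90.1 against 19.2 to 61.6 CPM), 3 ganglionic eminence markers (11.3 to 31.9 against 7.07 to 16.9 CPM), 3 erythroid markers (289 to 516 against 182 to 403 CPM) and 2 choroid plexus markers (0.288 to 120 against 0 to 3.92 CPM). Higher by median in knockout samples, but overlapping, were 3 Cajal-Retzius markers (11.9 to 21.2 against 12.6 to 46.2 CPM). So were 7 deep-layer neuron markers (1769 to 2093 against 1954 to 2773 CPM). No marker in these lists was at 0 in all samples of a genotype. Several of these lists were also lower in knockout samples outside cluster 4, without overlap. In cluster 3 endothelial markers were at 19.5 to 21.8 against 11.7 to 14.4 CPM. In cluster 1 oligodendrocyte lineage markers were at 3.49 to 4.40 against 0.773 to 1.93 CPM, and interneuron markers at 33.8 to 56.3 against 12.2 to 26.8 CPM. Pericyte markers in cluster 1 overlapped, at 5.05 to 6.86 and 5.27 to 7.93 CPM. In a setting added after the data were seen, every nucleus was left out that held a UMI of 29 genes from lists of other cell types. This took 31.2% to 47.4% of cluster 4 in wildtype samples and 16.2% to 26.4% in knockout samples, so the genotypes were trimmed unequally. Jag1 was then at −1.04 ± 0.13 on the log2 scale (adjusted p = 7.96e-04, edgeR). Wildtype nuclei with a Jag1 UMI held 440.4 apical progenitor UMIs per 100 nuclei against 375 in those without, 5.71 pericyte UMIs against 3.99, 5.71 ganglionic eminence UMIs against 3.46, 2.14 oligodendrocyte lineage UMIs against 1.41, 1.79 endothelial UMIs against 2.21, and 0 microglia UMIs against 0.714. In knockout nuclei pericyte UMIs were 2.72 against 1.5 and apical progenitor UMIs 335 against 283. Intermediate progenitor markers overlapped between genotypes, at 272 to 388 and 288 to 411 CPM. The part of the lower apical progenitor level in the Jag1 change was not tested.

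Notch2 was not called between genotypes in any of the 7 clusters, nor Notch1 in clusters 1, 4 and 5, and Notch1 had too few UMIs to be tested in clusters 2, 3, 6 and 7. Notch1 in cluster 4 gave 53.0, 64.4, 70.6 and 58.8 CPM in knockout replicates 1 to 4, overlapping the wildtype samples, with a log2 change of −0.06 ± 0.10 (95% interval −0.25 to 0.14, adjusted p = 0.846, edgeR). In cluster 5 its samples did not overlap, at 12.2 to 16.4 CPM in wildtype and 9.06 to 12.01 CPM in knockout, yet the change of −0.35 ± 0.18 was not called (adjusted p = 0.562, edgeR), beside 1.77% of 10595 genes called there. Notch2 in cluster 4 gave 285, 433, 451 and 379 CPM in knockout replicates 1 to 4, replicate 1 being the low one, with a log2 change of −0.19 ± 0.12 (95% interval −0.42 to 0.05, adjusted p = 0.499, edgeR).

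Dll1 was higher in the knockout in 7 of 7 clusters, by 0.18 to 0.40 on the log2 scale, and none of these was called. In cluster 4 it gave 11.1, 10.97, 13.1 and 9.58 CPM in knockout replicates 1 to 4 against 4.99 to 13.9 CPM in wildtype (0.25 ± 0.24, adjusted p = 0.694, edgeR). Over all nuclei the log2 change was 0.33 ± 0.10 (adjusted p = 0.102, edgeR), and it stayed uncalled in 13 of 13 alternatives, the lowest adjusted p being 0.0544.

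Hes1 in cluster 4 gave 17.7, 19.5, 19.1 and 15.9 CPM in knockout replicates 1 to 4, within the wildtype range, with a log2 change of −0.06 ± 0.13 (95% interval −0.32 to 0.19, adjusted p = 0.875, edgeR). Hes5 gave 48.1, 45.0, 40.6 and 40.0 CPM, under 3 of the 4 wildtype samples, since wildtype replicate 3 stood at 42.1 CPM. Its log2 change was −0.41 ± 0.13 (adjusted p = 0.115, edgeR), and without wildtype replicate 3 it was called at −0.52 (adjusted p = 0.0145). Mfng gave 46.0, 45.7, 48.1 and 40.7 CPM, above 3 of the 4 wildtype samples, since wildtype replicate 1 stood at 47.9 CPM. Its log2 change was 0.37 ± 0.14 (adjusted p = 0.199, edgeR), called without wildtype replicate 1 at 0.57 (adjusted p = 0.0137). In cluster 5, where Mfng is highest, knockout samples at 103 to 126 CPM and wildtype samples at 114 to 131 CPM overlapped, and the log2 change was −0.06 ± 0.09 (95% interval −0.23 to 0.11, adjusted p = 0.891, edgeR).

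Over all nuclei and in clusters 1, 2, 3, 6 and 7, none of the genes tested was called, with Notch1 not tested in clusters 2, 3, 6 and 7 and Hes1 not in cluster 7. Of all genes tested, 5.26% were called over all nuclei, and 4.84%, 9.11%, 3.36%, 0.779% and 1.03% in clusters 1, 2, 3, 6 and 7, in that order. Of the 51 tests of the 7 genes, 7 had an unadjusted p under 0.05. For this and the unadjusted counts below, the share of all genes under the same threshold was not computed.

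**Figure D4:**
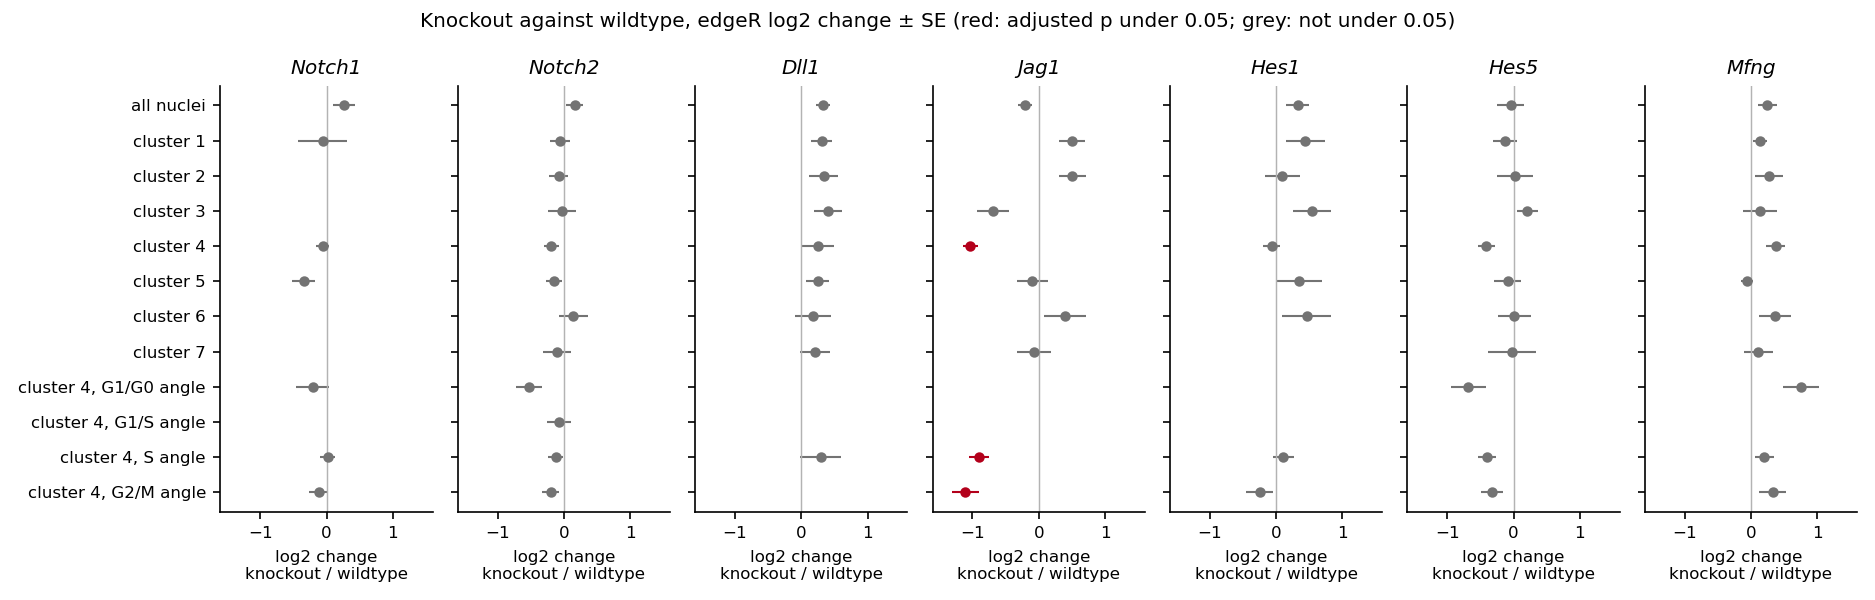
Log2 change between knockout and wildtype samples (horizontal axis, 0 is no change) of the 7 genes over all nuclei, in the 7 clusters and in the 4 cell cycle windows of cluster 4 (rows), with the SE from edgeR as bars; red points have an adjusted p under 0.05 and missing points were not tested. Jag1 is the one gene with red points, in cluster 4 (−1.03) and in its S (−0.90) and G2/M (−1.11) windows.

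The lower Jag1 level was also seen within cell cycle windows. In S, wildtype replicates 1 to 4 gave 36.7, 46.6, 37.1 and 44.0 CPM and knockout replicates 21.1, 18.2, 22.3 and 27.1 CPM, and Jag1 fell by 0.90 ± 0.15 on the log2 scale (adjusted p = 0.00403, edgeR). In G2/M, wildtype replicates gave 47.7, 46.7, 70.04 and 81.7 CPM and knockout replicates 29.9, 32.9, 21.0 and 24.0 CPM, and it fell by 1.11 ± 0.21 (adjusted p = 0.00696, edgeR). The genotypes did not overlap in either window. Beside it, the summed apical progenitor markers were 2088 to 2572 against 1821 to 1911 CPM in S and 2657 to 3101 against 2152 to 2292 CPM in G2/M. These were the only 2 calls in 18 tests of the 7 genes by window, beside 2.81% of 10815 genes called in S and 2.93% of 9871 in G2/M. In G1/G0, where 2.93% of 5325 genes were called, Jag1 had too few UMIs to be tested, and its mean was 45.4 ± 11.3 CPM in wildtype and 22.9 ± 15.1 CPM in knockout samples (SD, n = 4 each), from 3 to 21 UMIs per sample. In G1/S, with 1.41% of 3889 genes called, only Notch2 could be tested, at −0.07 ± 0.18 (adjusted p = 0.965, edgeR). In G1/G0, Mfng (0.75 ± 0.27), Hes5 (−0.68 ± 0.27) and Notch2 (−0.53 ± 0.20) had adjusted p of 0.210, 0.247 and 0.220.

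The change along the angle was not called as differing between genotypes for any of the 7 genes, in 14 tests with edgeR, of which 3 had an unadjusted p under 0.05. Of all genes, 0.35% of 10006 were called in the S comparison and 0.141% of 9217 in the G2/M comparison. Dll1 came nearest by its unadjusted p in G2/M, the knockout change minus the wildtype change being −1.52 ± 0.54 (adjusted p = 0.529, edgeR). Here the filter on low counts took samples per genotype and window. Dll1 was therefore tested although it had too few UMIs for G2/M against G1/G0 without the genotype term. Its G1/G0 level rests on few UMIs, so no conclusion is drawn from this value. DESeq2 also called 0 of the 7 genes.

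The wider pathway was described with a list of 58 genes, 51 of them other than the 7. In cluster 4, 0 of the 39 others tested were called between genotypes by edgeR, with a median log2 change of 0.06 beside 0.01 over all genes, and 0 of 35 in cluster 5, where 4.29% and 1.77% of all genes were called. Of these, 5 and 3 had an unadjusted p under 0.05, and DESeq2 called 2 of the whole list in cluster 4 and 0 in cluster 5. Over all nuclei 4 of 45 were called (8.89%, beside 5.26% of all genes). With the replicate number as a block, 7 of the whole list and 1344 of all genes were called. Hey1, a target related to the HES genes, rose from 3.30 ± 0.350 to 5.26 ± 1.03 CPM (SD, n = 4 each), by 0.68 ± 0.14 on the log2 scale (adjusted p = 0.0236, edgeR), called in 9 of 13 alternatives. Rbpj, the DNA-binding partner of the receptors, rose by 0.22 ± 0.05 (adjusted p = 0.0475, edgeR) and was called in 5 of 13 alternatives. Dlk2, a Delta-like protein, fell by 0.62 ± 0.12 (adjusted p = 0.0205, called in 10 of 13), and Neurl1a, a ligase that acts on ligands, fell by 0.50 ± 0.12 (adjusted p = 0.0406, edgeR) and was called in 5 of 13 alternatives. A sum over all nuclei also moves with the mix of clusters.

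Among neurons, Kat2b, an acetyltransferase recruited by the Notch complex, rose in clusters 1 (0.28 ± 0.07, adjusted p = 0.0432) and 2 (0.62 ± 0.11, adjusted p = 0.00211, edgeR). Maml2, a coactivator of the same complex, rose in cluster 1 (0.34 ± 0.07, adjusted p = 0.0150) and fell in cluster 2 (−0.69 ± 0.17, adjusted p = 0.0202, edgeR). Dtx4, a Deltex ubiquitin ligase, fell in cluster 2 by 1.02 ± 0.17 (adjusted p = 0.00215, edgeR) and was called in 13 of 13 alternatives. Dner, a Delta-like membrane protein of neurons, rose in cluster 3 by 0.46 ± 0.11 (adjusted p = 0.0299, edgeR). Kat2b in cluster 2 was called in 13 of 13 alternatives and in cluster 1 in 7 of 13, Maml2 in 9 of 13 in each cluster, and Dner in 7 of 13. In clusters 1, 2 and 3 the others called were 2 of 40, 3 of 39 and 1 of 40 (4, 5 and 1 of the whole list with the block). These shares of 5%, 7.69% and 2.5% lie near the 4.84%, 9.11% and 3.36% of all genes called there. In each of clusters 6 and 7, 0 of 37 were called, beside 0.779% and 1.03% of all genes. Sums of layer markers in clusters 1 and 2 differed by genotype without overlap. Upper-layer markers were at 5951 to 7046 CPM in wildtype and 3478 to 5134 CPM in knockout samples of cluster 1. In cluster 2 they were at 2605 to 4231 and 993 to 1535 CPM. Deep-layer markers were at 2452 to 2930 and 3676 to 5064 CPM in cluster 1. In cluster 2 they were at 7635 to 9162 and 10227 to 12198 CPM. Their part in these gene changes was not tested.

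Along the angle of cluster 4, 7 of 33 others were called in S against G1/G0 (21.2%, beside 19.1% of all genes), 1 higher and 6 lower, with a median log2 difference of −0.17 beside −0.05 over all genes. In G2/M against G1/G0, 11 of 31 were called (35.5%, beside 27.5% of all genes), 3 higher and 8 lower, with −0.06 beside −0.02. Lfng, the Fringe enzyme with a higher level in cluster 4 than in cluster 5, rose in G2/M by 0.58 ± 0.20 (adjusted p = 0.0269, edgeR), while Mfng fell there. The Lfng call held in 7 of 12 alternatives. Pofut1, which adds the fucose that Fringe enzymes extend, rose by 0.39 ± 0.12 (adjusted p = 0.0164, edgeR), and Kat2b by 0.27 ± 0.08 (adjusted p = 0.0153, edgeR). Among the largest decreases were those of Aph1b, a subunit of the protease that cuts Notch, at −0.81 ± 0.23 (adjusted p = 0.00802), Neurog2, the proneural factor, at −0.80 ± 0.13 (adjusted p = 1.19e-05), and Hes6, a HES protein that favours differentiation, at −0.62 ± 0.12 (adjusted p = 1.81e-04, edgeR). In S, Neurog2 (−0.58 ± 0.12), Hes6 (−0.38 ± 0.11) and the protease subunit Ncstn (−0.35 ± 0.13) were among the largest decreases, with adjusted p of 3.97e-04, 0.0138 and 0.0456 in edgeR. Neurog2 was called in S in 13 of 13 alternatives, Hes6 in 8 of 13 and Ncstn in 5 of 13.

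Delta ligands and HES targets are described as alternating between neighbouring cells, so the other genes were read in cluster 4 nuclei that held a Dll1 UMI. After thinning to 1400 UMIs these were 153 of 10948 nuclei. Neurog2, which drives Delta expression, stood at 20.3 UMIs per 100 nuclei with and 11.1 without a Dll1 UMI, higher in 6 of 8 samples. Mfng stood at 13.7 with and 5.75 without, higher in 7 of 8 samples. Thinned to 1000 UMIs it was 4.08 against 3.99, from 4 Mfng UMIs in 98 Dll1 nuclei. Without thinning it was 27.1 against 12.6, higher in 8 of 8. Deeper nuclei are likelier to hold a Dll1 UMI, so depth is not matched in values without thinning. Of the 153 nuclei, 34 lay in G1/G0, 11 in G1/S, 70 in S and 38 in G2/M. In S, thinned to 1400 UMIs, Neurog2 was 1.04 times and Mfng 1.46 times as high with a Dll1 UMI, each higher in 4 of 8 samples. These ratios were 1.32 and 2.54 in G1/G0, 5.46 and 0 in G1/S, and 2.03 and 4.19 in G2/M. The part of the cell cycle in the differences over all windows was not tested. Hes1 gave 2 UMIs in all Dll1 nuclei together, too few to compare. Hes5 was at 7.19 against 7.30 per 100 nuclei, and at 17.1 against 15.9 without thinning. Thinned to 1000 UMIs it was at 2.04 against 5.24, but from 2 Hes5 UMIs in 98 Dll1 nuclei, too few to compare. These counts are sparse and carry no test.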

How the data were processed

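Nuclei of 4 wildtype and 4 Pantr2 knockout samples were grouped by the genotype and replicate number in the labels. The deposited matrix holds UMI counts per gene and nucleus, which the authors made with kallisto and bustools on mm10, per the submitters' processing notes, with versions not given. Cluster numbers, the tricycle angle and doublet scores are the authors' deposited values, and no nucleus was removed here (highest hybrid doublet score per sample 0.499 to 0.5). Deposited totals per nucleus were 0.653% to 0.958% above the matrix sums. Counts were summed per sample and cluster or window and tested with edgeR 4.0.16 in R 4.3.3 (quasi-likelihood, TMM factors, filterByExpr, Benjamini-Hochberg adjustment over all genes tested), and again with DESeq2 1.42.0. The code was tested on simulated data. Levels are CPM without TMM factors, and intervals cover 95%.

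Same-numbered wildtype and knockout samples deviated together over all nuclei (r = 0.179 to 0.398, against −0.356 to 0.287 for the 12 other pairs). In cluster 4 same-numbered samples gave −0.0909 to 0.164 against −0.129 to 0.176 for the others, and in cluster 5 −0.0194 to 0.242 against −0.147 to 0.111. From the values over all nuclei the numbers were taken to pair samples and the replicate number was tried as a block. The 7 genes and all lists were chosen with earlier results of these data known. Named genes are the 7, up to 4 called pathway genes in each direction with the largest change per comparison, and the 3 genes nearest in pattern to each of the 7, and some genes that this rule names are not reported here. Psenen, Nrarp, Maml1, Hey2 and Neurog1 of the pathway list, and Sox2, Sstr2, Dlx1, P2ry12 and Alas2 of the marker lists, were not analysed here. Intervals over samples cover the spread between these samples only.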

Additional observations from a re-analysis of the deposited data

Results flagged for a closer look

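Of 98 groups of 4 samples checked for a sample far from the other 3, 9 had one, and chance gives about 1 in 20. Hes1, a target of Notch, stood out in 3 groups: wildtype replicate 1 in cluster 1 at 8.92 CPM (others 3.49 to 4.40), knockout replicate 4 in cluster 2 at 3.39 CPM (others 5.62 to 5.89) and wildtype replicate 2 in cluster 5 at 10.4 CPM (others 3.28 to 4.44), the last from 24 UMIs. Knockout replicate 1 was high in cluster 2 for 3 genes, with Hes5 at 21.7 CPM (others 12.6 to 13.7), Mfng at 15.49 CPM (others 8.28 to 9.18) and Notch2 at 19.2 CPM (others 14.6 to 14.99). Hes5 in cluster 7 was at 29.4 CPM in wildtype replicate 1 (others 9.08 to 11.3). Notch2 was at 28.1 CPM in cluster 5 of wildtype replicate 1 (others 31.3 to 31.6) and at 22.5 CPM in cluster 7 of knockout replicate 4 (others 15.02 to 15.6). None of these was the level behind a called genotype difference.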

How the results depend on the processing

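Jag1 in cluster 4 was called in 14 of 14 alternatives. The number of the 7 genes called over all nuclei and 7 clusters was 1 and stayed 1 in the other 6 alternatives, with 1 to 2 when each sample was left out. In the cell cycle windows it was 2, 1 with narrower windows (Jag1 was then called in S and not tested in G2/M), and 2 to 3 with a sample left out. In S against G1/G0 it was 2, 3 with RLE factors or no filter on low counts (Notch2 gained), 1 with DESeq2, 0 with narrower windows (Dll1 not tested), and 1 to 3 with a sample left out. In G2/M against G1/G0 it was 3, 4 with no filter, 2 with nuclei of at least 2000 UMIs, 0 with narrower windows (only Notch2 tested), and 2 to 3 with a sample left out. For cluster 5 against cluster 4 it was 0, 1 with no filter on low counts, and 0 to 1 with a sample left out. Genotype by window stayed at 0 in all 13 alternatives. Of 1338 log2 changes recomputed, 14 crossed the threshold towards a call and 14 away from it, and no called change reversed. Narrower windows hold fewer nuclei (123 in G2/M) and leave fewer genes tested, and other causes were not tested.

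The replicate block left the Jag1 call in cluster 4 in place (−1.01, adjusted p = 0.00133 with edgeR) and changed no other call of the 7 genes, while the pathway genes called over all nuclei went from 4 to 7, and to 8 with DESeq2. Over all genes, 732 were called over all nuclei, 263 without knockout replicate 3 and 1344 with the block. Lowest and highest counts over the alternatives, beside the count reported, were 335 and 800 (564) in cluster 1, 192 and 652 (400) in cluster 3, 316 and 644 (512) in cluster 4, 101 and 206 (188) in cluster 5, 51 and 253 (82) in cluster 6 and 63 and 255 (109) in cluster 7. For the windows they were 60 and 348 (156) in G1/G0, 17 and 147 (55) in G1/S, 159 and 412 (304) in S and 5 and 328 (289) in G2/M. They were 1131 and 1904 (1767) for S and 32 and 2638 (2313) for G2/M against G1/G0, 5 and 84 (35) and 0 and 44 (13) for genotype by window, and 21 and 88 (78) for cluster 5 against cluster 4. With TMM factors, levels were 0.871 to 1.08 times the plain ones, and 7 of 7 genes kept their highest cluster. Low counts left Notch1 untested in 4 clusters, Hes1 in cluster 7, and Dll1, Jag1 and Hes1 in the G1/G0 window.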
